A study of Mus musculus with 31 samples.

Results

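The skin of cpdm mice was compared with wild type skin at 4 weeks of age, when the dermatitis of these mice begins, with 3 arrays of each genotype taken by their labels out of 31 arrays in the series. The cpdm mice were females of the strain C57BL/KaLawRij-Sharpincpdm/Sharpincpdm RijSunJ, homozygous for the cpdm allele of Sharpin, and the wild type mice were females of the strain C57BL/6J. The series covers both genotypes at 5 ages (2, 4, 6, 8 and 10 weeks), and its title names angiogenesis in SHARPIN-deficient skin as the subject. No littermate controls are named, so differences between the 2 substrains and differences made by the Sharpin allele cannot be told apart in any comparison here. The labels give no body site, no batch and no pooling, and p-values rest on the spread between arrays within the groups of the whole series.

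SHARPIN is 1 of the subunits of the linear ubiquitin chain assembly complex, beside HOIP, the catalytic subunit (gene Rnf31), and HOIL-1L (gene Rbck1). The complex attaches linear ubiquitin chains to proteins of the TNF receptor complex, which helps to activate NF-kB and keeps the receptor from triggering cell death. Mice without SHARPIN are known for a chronic skin inflammation with thick epidermis, dying keratinocytes and infiltrates rich in eosinophils, neutrophils and macrophages.

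Levels are log2 signals of an Affymetrix whole-transcript array, and a difference of 1 is a 2-fold difference. Of 35556 probe sets, 21789 were annotated to a single gene, and the probe set with the highest mean over the 31 arrays stood for each of 19938 genes. A gene was called where its p from limma, adjusted over all 19938 genes by the Benjamini-Hochberg method, was below 0.05. Each difference below is cpdm minus wild type ± its standard error, and array values are given in the order of the replicate numbers. The difference comes from 3 arrays of each genotype. Its standard error and p rest on a gene's spread within the 10 groups of all 31 arrays, and not on the 6 arrays alone. A number that stands in brackets after a difference is its adjusted p. Columns of the 31 arrays had medians between 6.09 and 6.12. Arrays of 1 genotype correlated at 0.9885 to 0.99493 over all genes and arrays of different genotypes at 0.98086 to 0.98628, across genes that are not independent of each other. On several lists the arrays of 1 group differed among themselves, and 3 of these lists are given here. The mean level of the immediate early list was 8.88 in cpdm replicate 3 and 7.81 and 8.14 in the other cpdm arrays, against 7.64 to 8.13 in wild type skin. The macrophage list averaged 7.33 in wild type replicate 1 and 8.14 and 8.48 in the other wild type arrays, and 7.88 to 8.10 in cpdm skin. The interferon list ranged from 6.79 to 7.98 within cpdm skin and from 6.56 to 7.68 within wild type skin. The complement list and the cell cycle list, given below, also varied among the wild type arrays and were lowest in wild type replicate 1. The 12 skin tissue markers measured, among them Krt5, Krt14 and Col1a1, averaged 11.55, 11.50 and 11.51 in cpdm skin and 11.65, 11.66 and 11.66 in wild type skin. They were high in all 6 arrays and slightly lower in each cpdm array than in each wild type array. Probe sets of near-identical family members (stefins, Sprr2, Gsdmc, Krt6 and Krt16, late cornified envelope, kallikrein, chitinase-like and H2 genes) can share RNA, so which member of these families moved is uncertain.

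At 4 weeks 1378 of 19938 genes were called, which is 6.91% of them. The 678 genes called higher in cpdm skin were 3.4% and the 700 called lower were 3.51% of all genes. Counts of called members in the lists below are to be read beside these shares. The calls were even in number and uneven in size. The median difference was 0.54 among genes called higher and -0.46 among genes called lower, 134 genes were higher by at least 2-fold against 48 lower, and 25 were higher by at least 4-fold against 0 lower. Over all genes the median difference was 0, and 29.1% of them (5806) had 3 cpdm arrays all above or all below the 3 wild type arrays. The cpdm arrays lay above in 2514 of the 19938 genes and below in 3292. Among called genes the groups did not overlap in 655 of the 678 higher and 693 of the 700 lower. A lack of overlap therefore adds little to a call, and the 15 largest rises and 15 largest falls named were chosen for it. With 1 array left out the fit called 882, 646 and 618 genes without cpdm replicate 1, 2 or 3, and 871, 629 and 1064 without wild type replicate 1, 2 or 3. Of the 1378 calls, 795, 631 and 578 were called in the same direction without cpdm replicate 1, 2 or 3, and 743, 585 and 866 without wild type replicate 1, 2 or 3. The plot of difference against level shows the long upper tail.

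**Figure D1:**
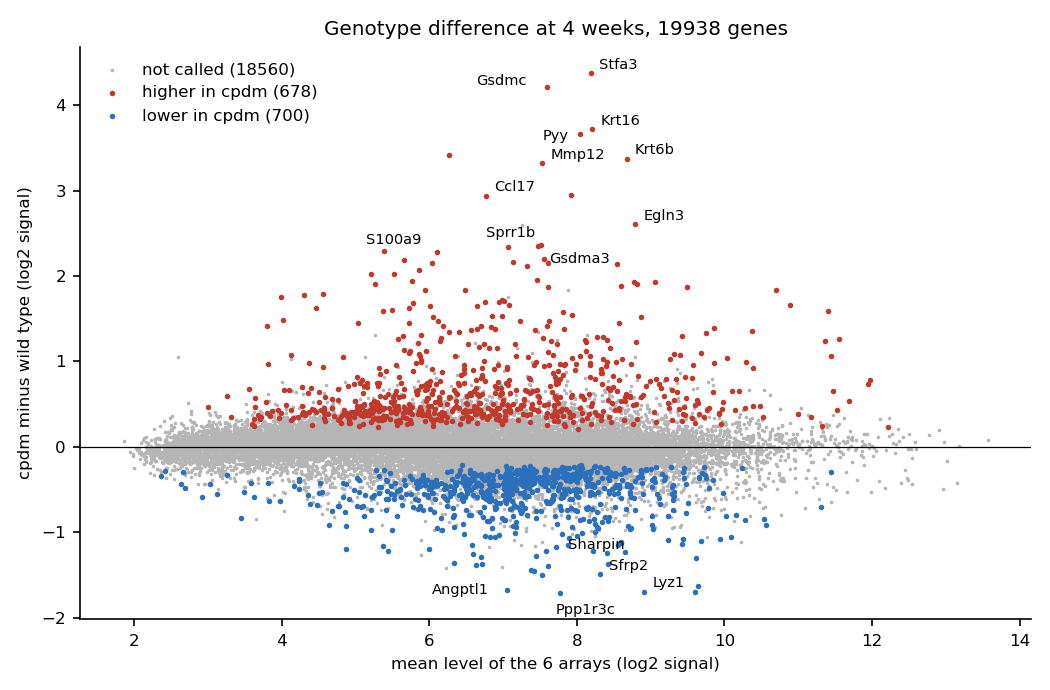
Difference between cpdm and wild type skin at 4 weeks (y axis, log2 signal) against the mean level of the 6 arrays (x axis, log2 signal), 1 point for each of 19938 genes, with the 678 called higher in red and the 700 called lower in blue. The largest difference upward is 4.38 (Stfa3) and the largest downward -1.71 (Ppp1r3c).

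Sharpin itself was measured first. Its levels were 7.50, 7.22 and 7.20 in cpdm skin and 8.13, 8.14 and 8.08 in wild type skin. All cpdm arrays lay below all wild type arrays, and the difference was -0.81 ± 0.09 (adjusted p = 1.16e-06). No source used here places the probes against the mutation, so the value bears on the labels and not on the protein. None of the 5 measured genes on either side of Sharpin in the RefSeq gene order was called by limma, though Maf1, Gm35339 and Hgh1 were below 0.05 before adjustment, and their differences ran from -0.27 (Gm35339) to 0.25 (Hgh1).

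Of 30 measured genes of linear ubiquitin and TNF death signalling, 3 were called higher and 1, Sharpin, lower, with a median difference of 0.04. The partner subunits of SHARPIN did not pass the test: HOIP (Rnf31) differed by 0.04 ± 0.09 and HOIL-1L (Rbck1) by 0.03 ± 0.08. The enzymes that cut linear chains did not pass either, with 0.08 ± 0.09 for Otulin and 0.00 ± 0.13 for Cyld. Called higher were genes that restrain or carry TNF signals. Tnip1, which binds linear chains and limits NF-kB, stood at 7.69, 7.84 and 7.87 in cpdm skin and 7.35, 7.22 and 7.35 in wild type skin, a difference of 0.49 ± 0.09 (adjusted p = 0.00223) with no overlap. Tnfaip3, the ubiquitin-editing inhibitor A20 and a classical NF-kB target, stood at 7.66, 8.19 and 9.12 in cpdm skin and 7.63, 7.19 and 7.23 in wild type skin, a difference of 0.97 ± 0.24 (adjusted p = 0.0152). The cpdm arrays of Tnfaip3 were spread widely, and the lowest lay only just above the highest wild type array. Traf2, an adaptor of the TNF receptors, was higher by 0.40 ± 0.11 (adjusted p = 0.0269). The genes of the death arm did not pass the test, although some did not overlap between groups: Ripk3, the kinase of necroptosis, differed by 0.67 ± 0.21 (adjusted p = 0.0588), Casp8, the initiator of death receptor apoptosis, by 0.54 ± 0.19 (0.0851), its partner Fadd by 0.00 ± 0.08 (0.987), the necroptosis effector Mlkl by 0.55 ± 0.31 (0.277), and the caspase-8 regulator Cflar by -0.06 ± 0.09 (0.739). Tnf differed by 0.45 ± 0.17 (0.114) and its receptor Tnfrsf1a by 0.13 ± 0.09 (0.429). Calls ended when 1 array was left out, with these adjusted p-values: Tnfaip3 without cpdm replicate 3 (0.113) or wild type replicate 2 (0.0676) and Traf2 without each array but wild type replicate 1 (0.0614 to 0.126). Without cpdm replicate 3, and also without wild type replicate 2, 1 member of the list was called higher.

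NF-kB subunits, inhibitors and targets were among the lists with the largest share of calls: 15 of 25 measured members were called higher and 0 lower, with a median of 0.65, and 20 of 25 had all cpdm arrays above all wild type arrays. Over all genes 2514 of 19938 lay above in this way. Zc3h12a, an RNase that degrades inflammatory mRNAs and is induced by NF-kB, stood at 8.01, 7.98 and 8.34 in cpdm skin and 6.92, 6.70 and 6.62 in wild type skin. Its difference was 1.36 ± 0.14 (adjusted p = 9.3e-07), with the cpdm arrays more than 1 log2 unit above the wild type arrays. Nfkbie, the inhibitor IkB epsilon, stood at 7.0, 7.29 and 7.48 in cpdm skin and 5.85, 5.86 and 5.94 in wild type skin, a difference of 1.37 ± 0.21 (adjusted p = 0.000175). Nfkb2, the precursor of the p52 subunit, stood at 8.55, 8.95 and 9.10 in cpdm skin and 7.93, 7.81 and 7.78 in wild type skin, a difference of 1.03 ± 0.16 (adjusted p = 0.000262). Neither gene overlapped between groups. Bcl3, a nuclear IkB protein, was higher by 1.16 ± 0.23 (adjusted p = 0.00264), and Lcn2, the iron-binding lipocalin 2, by 1.72 ± 0.28 (0.000534). Without cpdm replicate 3, and also without wild type replicate 2, 11 members of the list were called higher.

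The promoters of the 4 called members with the lowest p among those that hold a kappa B motif, the binding motif of NF-kB, are shown because these genes were higher together. Each line is a stretch of 132 bases of a RefSeq promoter (GRCm38.p6), 5′ to 3′ along the gene, from 120 bases before the annotated start of transcription to just after it. Capitals mark each match of the 10-base motif on either strand. Nfkbie lies at chr17:45555580-45555711 on the plus strand, Nfkb2 at chr19:46304617-46304748 on the plus strand, Ccl20 at chr1:83116646-83116777 on the plus strand and Bcl3 at chr7:19822744-19822875 on the minus strand.
Nfkbie: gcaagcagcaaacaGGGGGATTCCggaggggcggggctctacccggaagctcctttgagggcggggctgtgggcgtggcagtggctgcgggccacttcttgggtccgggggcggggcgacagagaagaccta
Nfkb2: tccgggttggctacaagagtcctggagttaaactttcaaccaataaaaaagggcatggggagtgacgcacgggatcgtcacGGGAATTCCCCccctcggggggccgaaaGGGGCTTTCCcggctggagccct
Ccl20: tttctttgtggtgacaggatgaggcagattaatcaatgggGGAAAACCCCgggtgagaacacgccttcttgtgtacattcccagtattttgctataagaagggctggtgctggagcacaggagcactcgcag
Bcl3: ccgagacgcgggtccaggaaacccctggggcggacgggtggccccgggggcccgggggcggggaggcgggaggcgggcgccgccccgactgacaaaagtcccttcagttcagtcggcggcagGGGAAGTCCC
The match began 106 bases before the start in Nfkbie, 80 bases before it in Ccl20 and 2 bases after it in Bcl3. Nfkb2, of whose 3 annotated promoters the first listed is printed, holds 3 matches that begin 39, 38 and 11 bases before the start, of which the pair at 39 and 38 overlaps. In windows of 300 bases, from 250 before to 50 after the start, 12 of 21 list members with a RefSeq promoter held a match, and so did 7 of the 12 called members. Among all genes with such a promoter 5.14% of 27025 did (4.51% of 32851 promoters). The list was made up of NF-kB subunits, inhibitors and targets, so its share of matches beside that of all genes says nothing about the calls. Among members not called, Irf1, Il6, Cxcl2, Nfkbia and Sod2 held a match and Rela, Birc3, Nfkbib and Tnfaip2 did not. A match describes letters only and shows no binding.

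Chemokine ligands, the secreted proteins that draw leukocytes into tissue, were higher in both main classes. Of 18 CC ligands 11 were called higher and 0 lower, with a median of 0.85. Ccl17, a ligand of CCR4 that attracts type 2 helper T cells, stood at 8.01, 8.4 and 8.32 in cpdm skin and 5.22, 5.46 and 5.22 in wild type skin. The groups lay far apart, by 2.94 ± 0.26 or 7.69-fold (adjusted p = 8.94e-08). Ccl22, the other CCR4 ligand, stood at 6.80, 6.54 and 7.15 in cpdm skin and 5.21, 5.14 and 5.19 in wild type skin, a difference of 1.65 ± 0.24 (adjusted p = 0.00016). Ccl1, a ligand of CCR8, was higher by 0.82 ± 0.12 (adjusted p = 0.000107), the monocyte attractant Ccl2 by 1.63 ± 0.29 (0.00128) and the CCR6 ligand Ccl20 by 0.88 ± 0.15 (0.000544), all with no overlap. Of 16 CXC and CX3C ligands 5 were called higher and 0 lower, with a median of 0.33. The membrane-bound Cxcl16 stood at 8.65, 8.62 and 8.86 in cpdm skin and 7.35, 7.09 and 7.04 in wild type skin, a difference of 1.55 ± 0.16 (adjusted p = 8.31e-07). Cxcl10, an attractant of CXCR3-bearing T cells that interferon induces, stood at 7.53, 8.50 and 7.59 in cpdm skin and 5.99, 6.31 and 6.18 in wild type skin, a difference of 1.71 ± 0.30 (adjusted p = 0.00112), and was also the only member called of the 26 measured genes of the interferon list, whose median was 0.07. The neutrophil attractants Cxcl1 (0.30 ± 0.08, adjusted p = 0.027) and Ppbp (0.58 ± 0.17, 0.041) and the ligand Cx3cl1 (0.43 ± 0.11, 0.0199) were higher by less than 2-fold, and each lost its call in leave-one-out fits: Cxcl1 without each array but cpdm replicate 1 and wild type replicate 3 (0.0772 to 0.138), Ppbp without each array but cpdm replicate 2 (0.0674 to 0.188) and Cx3cl1 without each array but cpdm replicate 1 and wild type replicate 1 (0.055 to 0.102). With either cpdm replicate 3 or wild type replicate 2 left out, 2 members of this list were called.

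Of 21 chemokine receptors, 3 were called higher in the full fit and in each fit with 1 array left out, and 0 were lower. Cxcr2, the neutrophil receptor for CXC ligands, stood at 5.40, 5.08 and 5.11 in cpdm skin and 3.35, 3.50 and 3.41 in wild type skin, a difference of 1.78 ± 0.22 (adjusted p = 1.66e-05). Ccr7, which guides mature dendritic cells and naive T cells, was higher by 1.12 ± 0.14 (1.62e-05), and Ccr8, a receptor for Ccl1, by 0.98 ± 0.18 (0.00196). No array of either genotype overlapped for these receptors. In whole skin, more cells of a type and more RNA per cell cannot be told apart.

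Of 9 measured ligands of the interleukin 1 family 6 were called higher, with a median of 0.67, and of 14 receptors and adaptors 1 was called higher and 1 lower. Without cpdm replicate 3, and also without wild type replicate 2, 3 ligands were called. The largest differences among the ligands were those of Il1f6 and Il1f8, interleukin 36 cytokines that keratinocytes make. Il1f6 (interleukin 36 alpha) stood at 6.88, 6.66 and 7.07 in cpdm skin and 5.23, 5.14 and 4.72 in wild type skin, a difference of 1.84 ± 0.16 (adjusted p = 7.45e-08). Il1f8 (interleukin 36 beta) stood at 7.0, 6.31 and 6.57 in cpdm skin and 5.27, 4.76 and 4.78 in wild type skin, a difference of 1.69 ± 0.19 (2.54e-06). For both, the lowest cpdm array exceeded the highest wild type array by more than 1 log2 unit. Il1f9 (interleukin 36 gamma) was higher by 1.16 ± 0.31 (0.0258). Il1b stood at 5.47, 5.65 and 7.39 in cpdm skin and 4.54, 4.51 and 4.70 in wild type skin, a difference of 1.59 ± 0.42 (0.0224) in which cpdm replicate 3 was the highest array. Il1a was higher by 0.67 ± 0.14 (0.00358) and the receptor antagonist Il1rn by 0.50 ± 0.13 (0.0183). The alarmin Il33, at 0.25 ± 0.34 (0.7), and Il18, at -0.06 ± 0.18 (0.87), did not pass the test. On the receptor side the interleukin 18 receptor subunit Il18rap was higher by 0.75 ± 0.17 (0.00885), and the decoy receptor Il1r2 was lower at 9.49, 8.62 and 8.60 in cpdm skin and 9.89, 10.01 and 10.04 in wild type skin, a difference of -1.08 ± 0.30 (0.0324). Calls ended without single arrays as follows (adjusted p): Il1b without cpdm replicate 3 (0.156) or wild type replicate 1 (0.0606) or wild type replicate 2 (0.0709); Il1f9 without each array but wild type replicate 1 (0.0586 to 0.101); Il1rn without each array but cpdm replicate 2 and wild type replicate 1 (0.0645 to 0.0939); Il1r2 without each array but cpdm replicate 1 (0.0646 to 0.136).

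Of 25 measured type 2 genes 5 were called higher and 0 lower, with a median of 0.20, and 3 were called without cpdm replicate 2, cpdm replicate 3 or wild type replicate 2. Il13ra2, the decoy receptor for interleukin 13, stood at 7.35, 7.30 and 7.56 in cpdm skin and 6.01, 5.44 and 5.26 in wild type skin, a difference of 1.83 ± 0.24 (adjusted p = 3.27e-05). Timp1, an inhibitor of matrix metalloproteases, was on the same list and was higher by 1.87 ± 0.31 (0.000491). Il13 itself stood at 6.09, 6.18 and 5.95 in cpdm skin and 5.68, 5.62 and 5.66 in wild type skin, where the medians of the arrays were 6.09 to 6.12. Its difference was 0.42 ± 0.10 (0.0104). The groups of Il13 did not overlap. Osmr, a receptor subunit for oncostatin M and interleukin 31, was higher by 0.61 ± 0.15 (0.0177), and the chitinase-like protein Chil3 by 1.48 ± 0.38 (0.0184). Of 18 type 17 genes 2 were called higher, Il23a (0.78 ± 0.19, 0.0135) and Il12b (0.49 ± 0.11, 0.00698), which encode the subunits of interleukin 23. Il20ra, a receptor chain for interleukins of the 20 group, was called lower at 7.14, 6.51 and 6.44 in cpdm skin and 8.33, 8.00 and 8.11 in wild type skin, a difference of -1.45 ± 0.36 (0.0176). Single arrays ended calls here too (adjusted p): Il13 without cpdm replicate 2 (0.0613); Osmr without each array but cpdm replicate 1 and wild type replicate 1 (0.0503 to 0.0886); Chil3 without cpdm replicate 1 (0.0705) or cpdm replicate 3 (0.085) or wild type replicate 2 (0.0843); Il23a without cpdm replicate 3 (0.0751) or wild type replicate 1 (0.0666); Il20ra without cpdm replicate 2 (0.0726) or cpdm replicate 3 (0.078) or wild type replicate 1 (0.0622).

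Keratins and small proline-rich proteins of stressed epidermis were higher by some of the widest margins. Of 24 measured wound and stress keratinocyte genes 13 were called higher and 0 lower, with a median of 1.01. Krt16, a keratin of wounded and hyperproliferative epidermis, stood at 10.44, 9.53 and 10.24 in cpdm skin and 6.80, 6.07 and 6.18 in wild type skin. This was a difference of 3.72 ± 0.62 or 13.2-fold (adjusted p = 0.00056), and all cpdm arrays lay above all wild type arrays. Its partner Krt6b stood at 10.92, 9.85 and 10.32 in cpdm skin and 7.16, 7.12 and 6.68 in wild type skin, a difference of 3.38 ± 0.46 (5.65e-05). Sprr1b, a cross-linked protein of the cornified envelope, was higher by 2.36 ± 0.40 (0.000709), Sprr2e by 1.63 ± 0.20 (1.33e-05) and Sprr2d by 1.45 ± 0.23 (0.000318). The wound and stress list had 8 members called without cpdm replicate 3. Of 14 measured keratins of normal epidermis, 1 was called higher and 1 lower, where 3.4% of all genes were called higher and 3.51% lower. The basal keratin Krt14 was higher by 0.74 ± 0.14 (0.00264), its partner Krt5 differed by 0.20 ± 0.08 (0.103), and the keratins of the spinous layer, Krt1 (0.11 ± 0.29) and Krt10 (-0.03 ± 0.24), did not pass the test. Krt15, a keratin of resting basal cells and the hair bulge, was lower by -0.70 ± 0.19 (0.0284), a call that ended in leave-one-out fits: Krt15 without each array but cpdm replicate 1 (0.0522 to 0.0996).

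Late differentiation and barrier genes moved in part. Of 22 cornified envelope genes 6 were called higher and 0 lower, with a median of 0.38. Hornerin (Hrnr), a filaggrin-like protein of the cornified layer, stood at 12.44, 12.34 and 12.33 in cpdm skin and 11.70, 11.58 and 11.47 in wild type skin, a difference of 0.79 ± 0.15 (adjusted p = 0.00182). Lce1h, a late cornified envelope protein, was higher by 1.23 ± 0.23 (0.00192), Lce1f by 0.98 ± 0.24 (0.0144), Casp14, the caspase of cornification, by 0.59 ± 0.13 (0.00658), and Lgals7, an epidermal galectin, by 0.54 ± 0.10 (0.00158). Loricrin (Lor), the main envelope protein, differed by -0.10 ± 0.29 (0.881). Of 19 genes of the lipid barrier 2 were called higher, the ceramide enzymes Degs2 (1.34 ± 0.20, 0.000182) and Ugcg (0.54 ± 0.11, 0.00403). Kallikreins are serine proteases that act in shedding of the cornified layer. Of 22 measured kallikreins, other epidermal proteases and protease inhibitors 5 were called higher and 0 lower, with a median of 0.26. Klk6 stood at 9.63, 9.55 and 9.66 in cpdm skin and 7.74, 7.39 and 7.30 in wild type skin, a difference of 2.14 ± 0.23 (1.82e-06) with no overlap. Klk13 was higher by 1.38 ± 0.23 (0.000475), Klk9 by 0.96 ± 0.24 (0.0158), Klk7 by 0.66 ± 0.15 (0.00956) and the protease Prss27 by 0.69 ± 0.14 (0.00358). Calls ended without single arrays for Lce1f without cpdm replicate 1 (0.0621) and for Klk9 without cpdm replicate 1 (0.0655) or wild type replicate 3 (0.0667), the values in brackets being adjusted p.

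The largest difference of the comparison belonged to a stefin, a small inhibitor of cysteine proteases. Stfa3 stood at 10.38, 10.27 and 10.49 in cpdm skin and 6.28, 6.20 and 5.52 in wild type skin, a difference of 4.38 ± 0.43 or 20.8-fold (adjusted p = 6.34e-07). Every cpdm array was nearly 4 log2 units above the highest wild type array. Stfa2 stood at 4.77, 4.27 and 4.5 in cpdm skin and 3.12, 3.36 and 2.83 in wild type skin, a difference of 1.41 ± 0.29 (0.00456). Cystatin B (Cstb) was higher by 1.07 ± 0.26 (0.0157), cystatin E/M (Cst6), an inhibitor of the epidermis, by 0.92 ± 0.23 (0.0156), and Csta1 by 0.59 ± 0.18 (0.0467). Among the serpins, inhibitors mostly of serine proteases, Serpina3n stood at 11.72, 11.65 and 11.78 in cpdm skin and 10.00, 10.16 and 10.00 in wild type skin, a difference of 1.66 ± 0.32 (0.00264), while Serpinb12 was lower at 6.25, 6.07 and 5.77 in cpdm skin and 7.55, 7.28 and 7.37 in wild type skin, a difference of -1.37 ± 0.29 (0.00484), and Serpinf1 (pigment epithelium-derived factor) was lower by -0.80 ± 0.22 (0.0318). In all, 6 of 27 measured stefins and serpins were called higher and 2 lower, with a median of 0.06, and 3 were called higher without cpdm replicate 2. The squamous cell carcinoma antigen genes Serpinb3a (1.06 ± 0.45, 0.151), Serpinb3c (0.04 ± 0.13) and Serpinb3d (0.29 ± 0.16) did not pass the test, and Serpinb2 (0.06 ± 0.22) and Serpinb5 (0.06 ± 0.12) overlapped between groups. Calls ended in leave-one-out fits (adjusted p) for Cstb without cpdm replicate 2 (0.0507) or wild type replicate 1 (0.0606); Cst6 without cpdm replicate 2 (0.0697) or wild type replicate 2 (0.0552) or wild type replicate 3 (0.0502); Csta1 without each array but wild type replicate 1 (0.0834 to 0.207); Serpinf1 without each array but wild type replicate 1 (0.0592 to 0.114).

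Gasdermins are proteins that form pores in membranes after cleavage, and 3 of them were among the 15 genes with the largest rise. Gsdmc stood at 9.38, 9.79 and 9.94 in cpdm skin and 5.63, 5.35 and 5.47 in wild type skin, a difference of 4.22 ± 0.28 or 18.6-fold (adjusted p = 4.86e-10). Gsdmc2 stood at 7.56, 7.96 and 8.41 in cpdm skin and 4.59, 4.88 and 4.21 in wild type skin, a difference of 3.42 ± 0.30 or 10.7-fold (8.94e-08). Gsdma3, expressed in the hair follicle and upper epidermis, stood at 8.37, 8.70 and 8.90 in cpdm skin and 6.48, 6.18 and 6.25 in wild type skin, a difference of 2.35 ± 0.28 (7.21e-06). In all of these genes the groups were separated by more than 1 log2 unit. Casp4 (caspase-11), the inflammatory caspase that senses lipopolysaccharide in the cytosol, stood at 7.44, 7.47 and 7.70 in cpdm skin and 5.88, 6.09 and 6.42 in wild type skin, a difference of 1.41 ± 0.23 (0.000389), and Nlrp10 was higher by 0.58 ± 0.13 (0.00729; lost for Nlrp10 without cpdm replicate 2 (0.0569)). The executor of pyroptosis Gsdmd (0.19 ± 0.22, 0.645), Gsdme (0.12 ± 0.10, 0.503), Casp1 (0.25 ± 0.27, 0.606), the adaptor Pycard (0.14 ± 0.11, 0.459) and the sensors Nlrp3 (0.00 ± 0.18) and Aim2 (0.11 ± 0.22) did not pass the test and overlapped between groups. In this list 5 of 16 members were called higher and 0 lower, with a median of 0.31.

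Antimicrobial proteins and S100 proteins had 9 of 27 members called higher and 1 lower, with a median of 0.33. S100a9, which pairs with S100a8 to form calprotectin, stood at 7.29, 6.95 and 7.50 in cpdm skin and 4.75, 5.03 and 5.11 in wild type skin, a difference of 2.28 ± 0.30 (adjusted p = 2.39e-05). Its partner S100a8 stood at 7.04, 6.21 and 7.45 in cpdm skin and 4.98, 4.80 and 4.72 in wild type skin, a difference of 2.07 ± 0.37 (0.00128). Both genes are made by neutrophils and by stressed keratinocytes, and neither overlapped between groups. The defensin Defb6 was higher by 1.36 ± 0.16 (7.74e-06) and the peptidoglycan recognition protein Pglyrp3 by 1.38 ± 0.19 (6.37e-05). The lysozyme gene Lyz1 was the member called lower, at 7.86, 8.20 and 8.13 in cpdm skin and 8.93, 9.98 and 10.37 in wild type skin. Its difference was -1.70 ± 0.48 (0.0328), and its call held only when no array, or wild type replicate 1, was left out: Lyz1 without each array but wild type replicate 1 (0.0777 to 0.118). Wild type replicate 1, the array with the lowest macrophage list, also had the lowest wild type level of Lyz1, and the part of macrophage RNA in the Lyz1 value was not tested.

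**Figure D2:**
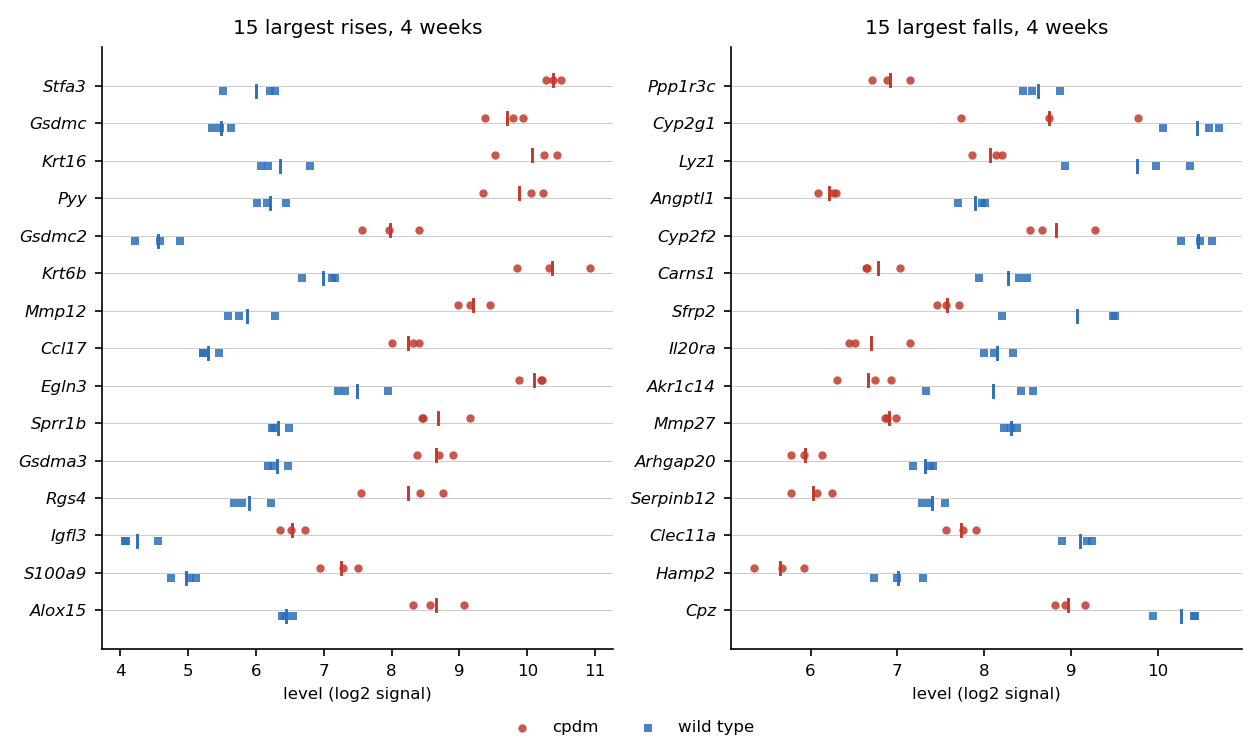
Levels (log2 signal, x axis) of 15 named genes with the greatest rise and 15 with the greatest fall at 4 weeks, with red circles for the 3 cpdm arrays, blue squares for the 3 wild type arrays and a vertical line for each mean. Stfa3 lies at 10.27 to 10.49 in cpdm skin and 5.52 to 6.28 in wild type skin, and Ppp1r3c at 6.71 to 7.14 against 8.45 to 8.87.

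Other genes among the 15 largest rises belong to several families. Pyy, which encodes the hormone peptide YY, stood at 9.35, 10.05 and 10.23 in cpdm skin and 6.45, 6.01 and 6.17 in wild type skin, a difference of 3.67 ± 0.32 or 12.7-fold (adjusted p = 8.94e-08). Mmp12, the macrophage elastase, stood at 8.98, 9.16 and 9.45 in cpdm skin and 6.28, 5.75 and 5.59 in wild type skin, a difference of 3.32 ± 0.30 or 10-fold (9.5e-08). Neither gene overlapped between groups, which the choice of the 15 required. Igfl3, an insulin growth factor-like gene, was higher by 2.29 ± 0.21 (2.07e-07), Rgs4, a regulator of G protein signalling, by 2.35 ± 0.39 (0.000597), and Alox15, a lipoxygenase of eosinophils and macrophages, by 2.20 ± 0.25 (4.71e-06). Of 26 eicosanoid pathway genes 4 were called higher and 3 lower. The epidermal lipoxygenase Alox12e stood at 11.41, 11.65 and 11.79 in cpdm skin and 9.81, 9.87 and 9.64 in wild type skin, a difference of 1.84 ± 0.20 (1.41e-06), and the phospholipase Pla2g4e was higher by 1.11 ± 0.15 (4.03e-05). Hpgd, which inactivates prostaglandins, was lower by -0.81 ± 0.18 (0.00807) and the prostaglandin E2 receptor Ptger3 by -0.77 ± 0.20 (0.0199). Calls ended (adjusted p) for Hpgd without cpdm replicate 1 (0.0591) and Ptger3 without each array but wild type replicate 3 (0.0518 to 0.0797).

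Of 21 genes of hypoxia and glycolysis 10 were called higher and 0 lower, with a median of 0.46, and 8 to 9 were called with 1 array left out. Egln3, the prolyl hydroxylase PHD3 that marks hypoxia-inducible factor for destruction and is itself induced by it, stood at 9.88, 10.21 and 10.20 in cpdm skin and 7.94, 7.32 and 7.21 in wild type skin, a difference of 2.61 ± 0.22 or 6.09-fold (adjusted p = 7.45e-08). The glucose transporter Slc2a1 stood at 10.61, 10.49 and 10.57 in cpdm skin and 9.25, 9.28 and 8.96 in wild type skin, a difference of 1.39 ± 0.14 (7.55e-07). The groups were at least 1 log2 unit apart for both. The glycolytic enzymes Pfkl (0.82 ± 0.11, 4.03e-05), Pfkp (0.81 ± 0.13, 0.000405) and Pgam1 (0.79 ± 0.11, 3.94e-05) were higher without overlap, while Hif1a, the oxygen-regulated subunit of the factor, differed by 0.10 ± 0.12 (0.666). Of 18 glycogen genes 2 were called lower and 0 higher, with a median of -0.29. Ppp1r3c, which targets protein phosphatase 1 to glycogen, stood at 7.14, 6.88 and 6.71 in cpdm skin and 8.87, 8.55 and 8.45 in wild type skin and had the largest fall of all called genes, -1.71 ± 0.26 (0.000172). The lysosomal glucosidase Gaa was lower by -0.48 ± 0.12 (0.0198), and this call ended in leave-one-out fits, which left 1 member called: Gaa without each array but cpdm replicate 2 and wild type replicate 1 (0.0564 to 0.0815). The muscle glycogen phosphorylase Pygm (-0.65 ± 0.25, 0.119) and the phosphorylase kinase subunits Phkb (-0.41 ± 0.14) and Phkg1 (-0.76 ± 0.28) were below the wild type arrays in all cpdm arrays without passing the test. Of 25 skeletal muscle genes limma called 0, while in the fit of the 6 arrays of 4 weeks alone 9 were called lower and with array weights 3. Of these genes 18 had all cpdm arrays below all wild type arrays, where 3292 of all 19938 genes did. The list had a mean level of 10.59 to 10.77 in cpdm skin against 10.96 to 11.26 in wild type skin, and its part in the glycogen values was not tested.

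Of 30 cytochrome P450 and xenobiotic enzymes 3 were called higher and 5 lower, with a median of -0.22. These counts were 1 and 2 without cpdm replicate 3, 2 and 3 without cpdm replicate 2, and 2 and 8 without cpdm replicate 1. Cyp2g1 stood at 9.77, 8.75 and 7.73 in cpdm skin and 10.06, 10.59 and 10.70 in wild type skin, a difference of -1.70 ± 0.38 (adjusted p = 0.00807), and Cyp2f2 at 9.28, 8.53 and 8.67 in cpdm skin and 10.27, 10.62 and 10.48 in wild type skin, a difference of -1.63 ± 0.36 (0.00784). In Cyp2g1 each cpdm array lay about 1 log2 unit from the next. The epoxygenase Cyp2b19 of keratinocytes was lower by -0.74 ± 0.13 (0.00126), whereas the retinaldehyde dehydrogenase Aldh1a3 was higher by 1.06 ± 0.18 (0.000761) and the aldehyde oxidase Aox4 by 1.25 ± 0.30 (0.014). Other genes with a large fall were Carns1, carnosine synthase (-1.50 ± 0.24, 0.000373), Arhgap20 (-1.38 ± 0.15, 1.16e-06), Hamp2, a hepcidin (-1.36 ± 0.26, 0.00257), and Akr1c14, an aldo-keto reductase (-1.45 ± 0.44, 0.0447). Calls ended without single arrays (adjusted p) for Cyp2g1 without cpdm replicate 3 (0.0739); Aox4 without cpdm replicate 3 (0.0544); Akr1c14 without each array but wild type replicate 1 (0.0797 to 0.141).

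Dermal matrix genes leaned downward. Of 32 collagens and elastic fibre genes 6 were called lower and 1 higher, with a median of -0.42, and 17 had all cpdm arrays below all wild type arrays. Over all genes 3292 of 19938 lay below in this way. Elastin (Eln) stood at 9.58, 9.58 and 9.51 in cpdm skin and 10.46, 10.61 and 10.76 in wild type skin, a difference of -1.05 ± 0.20 (adjusted p = 0.00168). The microfibril gene Mfap2 stood at 8.97, 9.37 and 9.05 in cpdm skin and 9.90, 10.35 and 10.46 in wild type skin, a difference of -1.11 ± 0.24 (0.00702). The groups were separated in both. Mfap4 was lower by -1.14 ± 0.25 (0.00828) and the small proteoglycan Ogn by -1.13 ± 0.30 (0.0226), while tenascin C (Tnc), a matrix protein of healing wounds, was the member called higher, by 1.42 ± 0.33 (0.0101). The fibrillar collagens of the dermis did not pass the test, with -0.42 ± 0.19 for Col1a1 (0.17), -0.50 ± 0.22 for Col1a2 (0.176) and -0.43 ± 0.21 for Col3a1 (0.21). Without cpdm replicate 3, 2 members of the list were called lower, and single arrays ended the calls (adjusted p) of Mfap4 without cpdm replicate 3 (0.0545); Ogn without each array but cpdm replicate 2 and wild type replicate 1 (0.0755 to 0.088); Tnc without cpdm replicate 3 (0.0562) or wild type replicate 1 (0.0517). Of 17 fibroblast markers 2 were called lower and 0 higher, with a median of -0.27: Dpp4 stood at 7.93, 8.19 and 7.85 in cpdm skin and 8.77, 9.24 and 9.40 in wild type skin, a difference of -1.15 ± 0.17 (0.000165), and Fap was lower by -0.94 ± 0.21 (0.00768). The mean level of the fibroblast list was 8.58 to 8.71 in cpdm skin and 8.82 to 9.08 in wild type skin, and its part in the matrix values was not tested.

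Matrix proteases and their inhibitors were called in both directions, with 5 of 26 higher and 2 lower and a median of 0.04. With 1 array left out 3 were called higher, or 4 without wild type replicate 3. Besides Mmp12 and Timp1, the leukocyte metalloprotease Adam8 was higher, at 8.10, 8.16 and 8.39 in cpdm skin and 6.99, 7.10 and 7.32 in wild type skin, a difference of 1.08 ± 0.21 (adjusted p = 0.00257). Mmp27 was lower at 6.98, 6.88 and 6.86 in cpdm skin and 8.31, 8.23 and 8.38 in wild type skin, a difference of -1.40 ± 0.24 (0.000868). Neither overlapped between groups. The aggrecanase Adamts5 was lower by -0.55 ± 0.15 (0.0243), and that call ended in leave-one-out fits: Adamts5 without each array but cpdm replicate 2 and wild type replicate 1 (0.0634 to 0.0951). Among ligands and antagonists of Wnt, BMP and TGF-beta signalling 5 of 30 were called higher and 3 lower, including Wnt10a, a ligand of epidermis and hair placodes (0.53 ± 0.09, 0.00117), Wnt4 (0.45 ± 0.11, 0.0157), and the BMP antagonist Nog (0.36 ± 0.09, 0.0238) on the higher side and the Wnt antagonist Sfrp2 of dermal fibroblasts (-1.49 ± 0.40, 0.0252) on the lower. The activin subunit Inhbb was higher by 0.84 ± 0.24 (0.0323). Without cpdm replicate 2, and also without wild type replicate 2, 1 member was called higher. The count of members called lower was 1 without wild type replicate 1 or 3 and 0 without any of the other arrays. Calls ended (adjusted p) for Wnt4 without cpdm replicate 2 (0.0612) or wild type replicate 2 (0.104); Nog without cpdm replicate 2 (0.152) or wild type replicate 1 (0.0983) or wild type replicate 2 (0.0671); Inhbb without each array but wild type replicate 1 (0.0568 to 0.135); Sfrp2 without each array but wild type replicate 1 (0.0596 to 0.114).

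Angiogenesis is the subject named by the series title. Of 20 measured angiogenic growth factors 2 were called higher and 1 lower, with a median of -0.14, where 3.4% of all genes were called higher and 3.51% lower. Vegfa, the main growth factor of blood vessels, stood at 8.28, 8.96 and 8.69 in cpdm skin and 7.91, 7.72 and 7.91 in wild type skin. Its cpdm arrays all lay above the wild type arrays, and the difference was 0.80 ± 0.21 (adjusted p = 0.0212). Hgf, hepatocyte growth factor, stood at 5.67, 5.72 and 5.96 in cpdm skin and 4.86, 4.90 and 4.81 in wild type skin, a difference of 0.93 ± 0.22 (0.0134). Pdgfd, a platelet-derived growth factor, was lower at 6.11, 6.04 and 6.24 in cpdm skin and 6.65, 6.90 and 7.05 in wild type skin, a difference of -0.74 ± 0.21 (0.0355). Each of these calls ended without some arrays (adjusted p): Vegfa without cpdm replicate 2 (0.122) or cpdm replicate 3 (0.0721) or wild type replicate 2 (0.0824); Hgf without cpdm replicate 3 (0.067); Pdgfd without each array but wild type replicate 1 (0.0709 to 0.116). Without cpdm replicate 3, 0 of the growth factors were called higher. The lymphatic factors Vegfc (-0.21 ± 0.16, 0.449) and Vegfd (-0.71 ± 0.28, 0.131), placental growth factor Pgf (0.19 ± 0.15, 0.445), the angiopoietins Angpt1 (-0.53 ± 0.21, 0.12) and Angpt2 (0.25 ± 0.13, 0.236), Fgf2 (-0.27 ± 0.15, 0.261) and the peptide Apln (0.31 ± 0.10, 0.0606) did not pass the test.

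Endothelial receptors and inhibitors were called in both directions, where 3.4% of all genes were called higher and 3.51% lower. Of 20 blood endothelial markers 1 was called higher, the VEGF receptor Flt1 (0.58 ± 0.18, adjusted p = 0.0489), and 1 lower, the angiopoietin receptor Tek (-0.63 ± 0.17, 0.0274), with a median of -0.07; Kdr, the main signalling receptor for Vegfa, differed by -0.57 ± 0.22 (0.111). The mean level of the blood endothelial list was 7.41 to 7.52 in cpdm skin and 7.47 to 7.54 in wild type skin, so the groups overlapped. Limma called 0 of 7 lymphatic endothelial markers, and 0 were below 0.05 before adjustment. Among 20 angiogenesis inhibitors 2 were higher and 3 lower, and with 1 array left out 1 was lower, or 2 without wild type replicate 1. Called higher were Cxcl10, by 1.71 (adjusted p = 0.00112), and Adamts8, by 0.40 (0.0382). Adamts8 lost its call without each array but wild type replicate 3 (0.0739 to 0.163). Serpinf1, given above with the serpins, was among those called lower. Angptl1, an angiopoietin-like protein, stood at 6.29, 6.26 and 6.09 in cpdm skin and 8.01, 7.70 and 7.97 in wild type skin, a difference of -1.68 ± 0.29 (0.000827), and the tendon protein tenomodulin (Tnmd) was lower by -1.24 ± 0.36 (0.0372). Endothelial adhesion and activation had 4 of 15 members called higher and 0 lower, with a median of 0.40. With 1 array left out 3 were called, or 2 without wild type replicate 2. Icam1, the adhesion molecule that inflamed endothelium presents to leukocytes, stood at 8.07, 8.14 and 8.16 in cpdm skin and 7.38, 7.26 and 7.50 in wild type skin, a difference of 0.74 ± 0.16 (0.0051). Its ligand subunit Itgal was higher by 0.74 ± 0.17 (0.0114) and the hyaluronan receptor Cd44 by 0.99 ± 0.11 (1.8e-06), while E-selectin (Sele) differed by 0.57 ± 0.18 (0.0596). Calls ended (adjusted p) for Flt1 without each array but cpdm replicate 1 and wild type replicate 1 (0.122 to 0.162); Tek without each array but cpdm replicate 1 (0.056 to 0.102); Tnmd without each of the 6 arrays (0.0676 to 0.137); Itgal without wild type replicate 2 (0.0625).

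Marker lists of leukocytes were read by their counts and by their mean level in each array. Signals of this array have no true zero, so an absent cell type has no fixed level. The neutrophil list had 6 of 16 members higher and 1 lower, and its mean level was 5.48 to 5.74 in cpdm skin against 4.94 to 5.0 in wild type skin. Its members called higher included S100a8, S100a9 and Lcn2, which are also on the antimicrobial list, and the receptor Cxcr2. Il1r2 was the member called lower. The part of the shared genes in the mean level of the neutrophil list was not tested. Eosinophil markers had 3 of 9 called higher (5.53 to 5.61 against 4.99 to 5.18; 1 to 3 with 1 array left out), among them Alox15, the granule protein Prg2 (0.43 ± 0.13, adjusted p = 0.0487) and the ribonuclease Ear6 (0.38 ± 0.11, 0.033), and the eosinophil lectin Siglecf differed by 0.34 ± 0.12 (0.0956) without a call. Dendritic and Langerhans cell markers had 5 of 20 higher (6.61 to 6.80 against 6.1 to 6.38). The count was 3 without cpdm replicate 2, cpdm replicate 3 or wild type replicate 1, and 7 without wild type replicate 3. The integrin Itgax (CD11c) stood at 7.12, 7.43 and 7.88 in cpdm skin and 6.02, 5.51 and 5.95 in wild type skin, a difference of 1.65 ± 0.26 (0.000258), and Epcam, which Langerhans cells and follicle keratinocytes share, was higher by 0.94 ± 0.17 (0.00149). Cd83, a marker of mature dendritic cells, was higher by 0.62 ± 0.16 (0.0204). T, NK and innate lymphoid markers had 5 of 22 higher (1 without cpdm replicate 3 or wild type replicate 2), at a mean of 5.78 to 5.82 against 5.49 to 5.57: granzyme B (Gzmb, 0.59 ± 0.13, 0.00807), the interleukin 2 receptor Il2ra (0.73 ± 0.18, 0.014), the activation marker Cd69 (0.71 ± 0.18, 0.0183), the interleukin 7 receptor Il7r (0.75 ± 0.23, 0.0434) and the costimulator Icos (0.62 ± 0.19, 0.049). These lists had means that did not overlap between genotypes. They moved with the chemokine, receptor and protease genes above, and their part in those results was not tested. Calls ended without single arrays (adjusted p) for Prg2 without each array but wild type replicate 3 (0.0655 to 0.219); Ear6 without each array but cpdm replicate 2 and wild type replicate 3 (0.0576 to 0.164); Cd83 without each array but cpdm replicate 1 and wild type replicate 3 (0.0539 to 0.0948); Gzmb without cpdm replicate 2 (0.0573); Il2ra without cpdm replicate 2 (0.0569) or cpdm replicate 3 (0.0634) or wild type replicate 2 (0.082); Cd69 without cpdm replicate 3 (0.103) or wild type replicate 2 (0.05) or wild type replicate 3 (0.059); Il7r without each array but wild type replicate 1 (0.0616 to 0.165); Icos without each array but cpdm replicate 2 (0.0554 to 0.171).

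**Figure D3:**
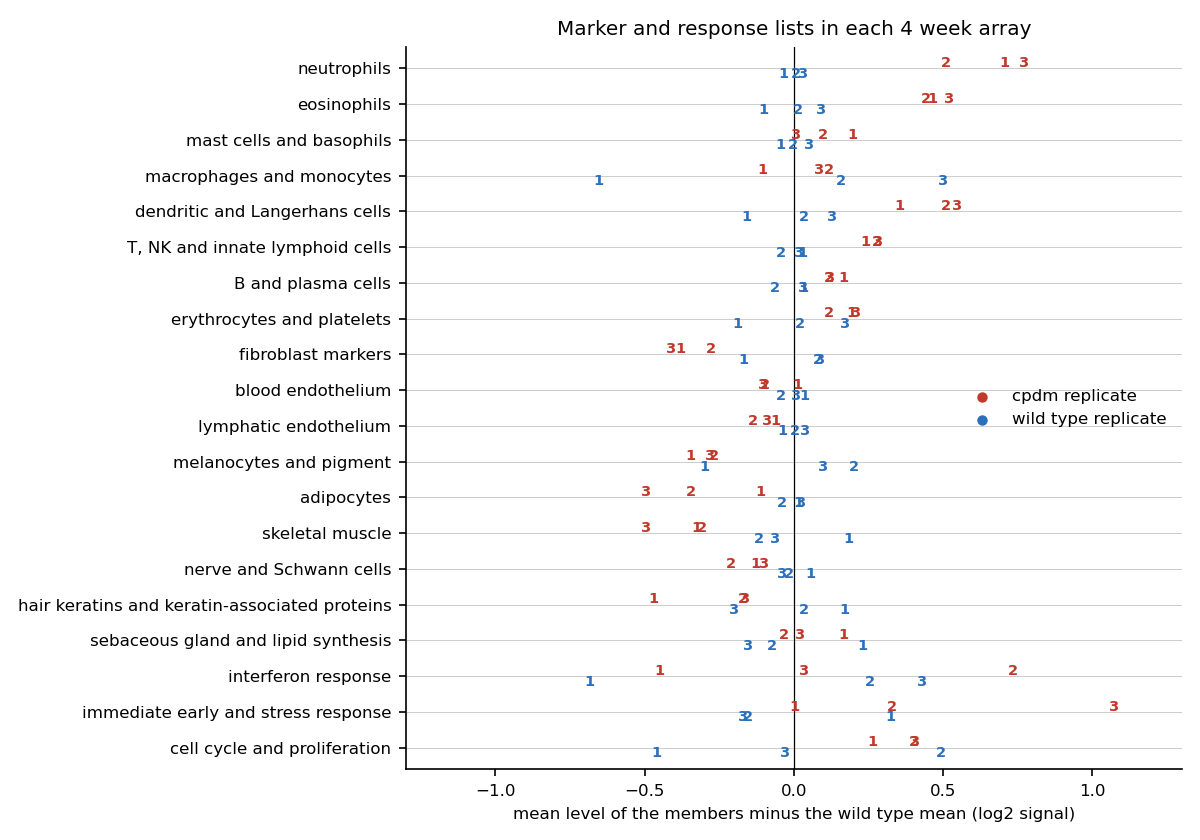
Mean level of each marker or response list in each 4 week array minus the mean of the 3 wild type arrays (x axis, log2 signal), with the replicate number as symbol, red for cpdm and blue for wild type. The neutrophil, eosinophil, dendritic and T cell lists lie higher in all cpdm arrays, whereas the macrophage, interferon and cell cycle lists overlap, and cpdm replicate 3 stands highest in the immediate early list.

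Macrophage and monocyte markers had 1 of 21 called higher and 1 lower, where 3.4% of all genes were called higher and 3.51% lower. Their median was 0.00, and their mean level overlapped between groups (7.88 to 8.10 in cpdm skin, 7.33 to 8.48 in wild type skin). Mertk, a receptor for the uptake of dying cells, was lower at 7.79, 8.05 and 8.13 in cpdm skin and 8.78, 8.90 and 8.91 in wild type skin, a difference of -0.87 ± 0.14 (adjusted p = 0.000417). The scavenger receptor Cd163 stood at 8.76, 8.33 and 8.69 in cpdm skin and 8.88, 9.70 and 10.01 in wild type skin, a difference of -0.94 ± 0.34 (0.0943), below in all cpdm arrays without a call, and the general marker Adgre1 (F4/80) overlapped at 0.46 ± 0.42. The scavenger receptor Marco was higher by 0.48 ± 0.14 (0.0327), a call that ended in leave-one-out fits: Marco without each array but wild type replicate 3 (0.057 to 0.183). Mast cell and basophil markers had 3 of 16 higher and 1 lower. The higher count was 1 without cpdm replicate 1 or wild type replicate 3 and 0 without any of the other arrays. The mast cell receptor Mrgprb2 was lower at 5.06, 4.84 and 4.49 in cpdm skin and 6.04, 6.15 and 5.69 in wild type skin, a difference of -1.16 ± 0.27 (0.0103), while the basophil protease Mcpt8 was higher by 0.63 ± 0.18 (0.0338) and histidine decarboxylase (Hdc), which makes histamine, by 0.71 ± 0.19 (0.028). The transcription factor Gata2 was higher by 0.27 ± 0.08 (0.0437). Their calls ended without single arrays (adjusted p) for Mrgprb2 without cpdm replicate 3 (0.0644) or wild type replicate 2 (0.0528); Mcpt8 without each array but cpdm replicate 1 (0.0626 to 0.121); Hdc without each of the 6 arrays (0.0502 to 0.101); Gata2 without each array but wild type replicate 3 (0.07 to 0.177). Limma called 0 of 14 B and plasma cell markers, with 2 below 0.05 before adjustment.

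Antigen presentation genes showed small differences in 1 direction. All 15 measured MHC and processing genes had 3 cpdm arrays above 3 wild type arrays, where 2514 of all 19938 genes did. Their differences were 0.33 to 0.98 with a median of 0.60, and 6 of them were called. The median of this list was already 0.57 at 2 weeks, with 1 member called, and was 0.40 at 6 weeks. The test of the change called 0 members for 4 against 2 weeks and 0 for 6 against 4 weeks. The immunoproteasome subunit Psmb8 stood at 8.39, 8.90 and 8.71 in cpdm skin and 7.33, 7.71 and 8.02 in wild type skin, a difference of 0.98 ± 0.25 (adjusted p = 0.0215). The class I gene H2-Q4 stood at 9.37, 9.54 and 9.52 in cpdm skin and 8.55, 8.67 and 8.82 in wild type skin, a difference of 0.80 ± 0.20 (0.0162). Neither overlapped between groups. The peptide transporter genes Tap1 (0.72 ± 0.18, 0.0183) and Tap2 (0.64 ± 0.18, 0.0326) and the class I transactivator Nlrc5 (0.66 ± 0.19, 0.0332) were higher as well. Calls of this list rested on few arrays: 0 members were called without cpdm replicate 2, wild type replicate 1 or wild type replicate 2, and the calls named ended (adjusted p) for Psmb8 without each array but cpdm replicate 1 and wild type replicate 3 (0.0605 to 0.106); H2-Q4 without each array but cpdm replicate 1 and wild type replicate 3 (0.0536 to 0.0628); Tap1 without cpdm replicate 2 (0.0883) or wild type replicate 1 (0.0606) or wild type replicate 2 (0.0677); Tap2 without each array but cpdm replicate 1 and wild type replicate 3 (0.0787 to 0.14); Nlrc5 without each array but cpdm replicate 1 (0.0681 to 0.146).

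The epidermal growth factor family had 2 of 15 members called higher and 1 lower. Epigen (Epgn), a keratinocyte ligand of the EGF receptor, stood at 7.02, 7.67 and 8.57 in cpdm skin and 7.30, 5.70 and 5.65 in wild type skin, a difference of 1.54 ± 0.37 (adjusted p = 0.0141). Its groups overlapped, since wild type replicate 1 exceeded cpdm replicate 1. Hbegf, the heparin-binding ligand, stood at 7.16, 6.89 and 8.18 in cpdm skin and 6.57, 6.34 and 6.44 in wild type skin, a difference of 0.96 ± 0.25 (0.021). Betacellulin (Btc) was lower at 7.51, 7.28 and 7.11 in cpdm skin and 8.94, 8.17 and 8.25 in wild type skin, a difference of -1.15 ± 0.26 (0.00939). The calls ended (adjusted p) for Epgn without cpdm replicate 3 (0.101) or wild type replicate 2 (0.0816) or wild type replicate 3 (0.0666); Hbegf without cpdm replicate 3 (0.15) or wild type replicate 2 (0.0759); Btc without cpdm replicate 3 (0.051) or wild type replicate 1 (0.0626). Cell cycle genes, by contrast, gave 0 calls of 33 by limma with a median of 0.36 (6 were below 0.05 before adjustment). Wild type replicates 1, 2 and 3 averaged 6.67, 7.62 and 7.10 on this list and cpdm skin 7.39 to 7.53, and 5 members were called higher without wild type replicate 2. Immediate early genes were highest in cpdm replicate 3: Fosb stood at 6.28, 7.57 and 9.97 in cpdm skin and 6.65, 5.76 and 6.15 in wild type skin and Atf3 at 7.13, 8.02 and 9.92 in cpdm skin and 7.55, 6.67 and 7.09 in wild type skin, neither was called (adjusted p 0.0671 and 0.0632), and both overlapped. Egr2 was the member called, at 8.58, 8.71 and 9.42 in cpdm skin and 8.13, 7.91 and 7.69 in wild type skin, a difference of 0.99 ± 0.23 (0.0109), and lost its call without that array (Egr2 without cpdm replicate 3 (0.0862)). Between 0 (without cpdm replicate 3) and 6 (without cpdm replicate 1) members of this list were called with 1 array left out. Among 16 clock genes Bhlhe40, a repressor of the clock, was higher by 1.48 ± 0.21 (0.000101) and Arntl (Bmal1) lower by -0.60 ± 0.14 (0.0128; Arntl without wild type replicate 1 (0.061)).

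Of 31 hair keratins and keratin-associated proteins 1 was called higher, Krt79 of the follicle opening, at 11.87, 11.97 and 12.08 in cpdm skin and 11.12, 10.94 and 10.68 in wild type skin, a difference of 1.06 ± 0.13 (adjusted p = 1.1e-05). The median of the list was -0.20, and the wild type values of its most variable members were wide: Krt28 stood at 5.18, 5.58 and 4.99 in cpdm skin and 6.60, 7.38 and 5.57 in wild type skin, with overlap. At 6 weeks the same list had a median of -3.01 with 27 members called lower. Of 33 genes of follicle growth and stem cells 1 was higher and 2 lower, where 3.4% of all genes were called higher and 3.51% lower. The lower ones were Bmp2 (-0.35 ± 0.10, 0.0438) and Bmp4 (-0.55 ± 0.17, 0.0475). Their calls ended for Bmp2 without each array but wild type replicate 3 (0.0695 to 0.148) and Bmp4 without each of the 6 arrays (0.0501 to 0.181). Lgr5, a marker of follicle stem cells, differed by -0.91 ± 0.29 (0.0577). Sebaceous and lipid synthesis genes had 2 of 25 higher, among them the fatty acid elongase Elovl3 of sebocytes at 10.73, 10.13 and 10.38 in cpdm skin and 9.43, 8.97 and 8.85 in wild type skin (1.33 ± 0.23, 0.000789), and 1 lower, the desaturase Fads1 (-0.52 ± 0.12, 0.0102; Fads1 without wild type replicate 2 (0.0611)). Limma called 0 of 16 adipocyte, 15 melanocyte and 25 skeletal muscle genes, with medians of -0.35, -0.23 and -0.40 and 3, 0 and 4 of them below 0.05 before adjustment. In the fit of the 6 arrays of 4 weeks alone 2, 1 and 9 of them were called lower, and with array weights 3, 0 and 3.

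**Figure D4:**
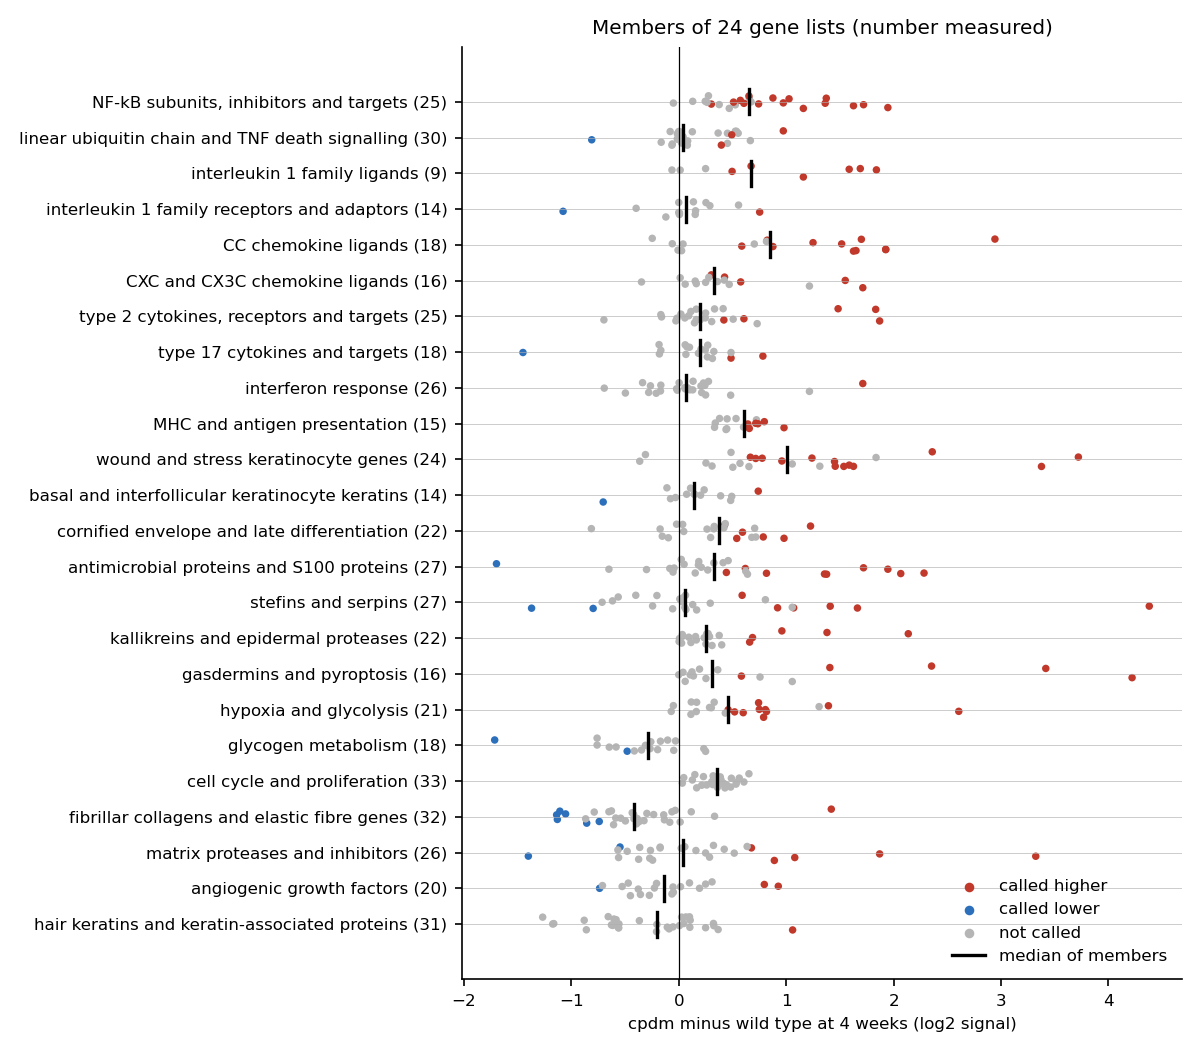
Difference between cpdm and wild type skin at 4 weeks (x axis, log2 signal) for each measured member of 24 gene lists (rows, number measured in brackets), in red where called higher, blue where called lower and grey where not called, with a black line at each list's median. The NF-kB, CC chemokine and wound lists have medians of 0.65, 0.85 and 1.01, while the collagen list lies at -0.42.

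The same genotype difference was then set beside those of 2 and 6 weeks, each measured on other mice. At 2 weeks 8 genes were called higher and 3 lower. A test of the change itself called 46 genes between 2 and 4 weeks (0.231% of 19938), of which 37 became more positive and 9 more negative, at an unadjusted p below 0.05 for 2633. Gsdmc had the lowest p. Its level at 2 weeks was 6.19, 6.05 and 5.66 in cpdm skin and 4.98, 5.01 and 4.76 in wild type skin, so the difference went from 1.05 to 4.22, a change of 3.17 ± 0.39 (adjusted p = 0.000424). Ccl17 went from 0.47 to 2.94, a change of 2.47 ± 0.37 (adjusted p = 0.00217). Egln3 went from 0.56 to 2.61, Mmp12 from 0.54 to 3.32, Gsdmc2 from 0.65 to 3.42, Igfl3 from 0.26 to 2.29 and Sprr2e from -0.23 to 1.63, each with an adjusted p of 0.00217. Serpina10, Cd44 and the retinol-binding gene Rbp2 made up the rest of the 10 lowest p-values, with changes of 1.15, 0.94 and 1.48. In Cd44 the 2 week groups overlapped, at 9.92, 9.85 and 9.98 in cpdm skin and 9.90, 9.83 and 9.89 in wild type skin. Part of these changes came from the wild type side. From 2 to 4 weeks the wild type mean fell from 9.87 to 9.36 in Cd44, while the cpdm mean rose from 9.92 to 10.35. It also fell from 8.29 to 7.49 in Egln3 and from 4.31 to 3.65 in Sprr2e, and rose in Gsdmc, Gsdmc2 and Igfl3. Stfa3, by comparison, already differed by 2.63 at 2 weeks.

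At 6 weeks 1669 genes were called higher (8.37% of all genes) and 1212 lower (6.08%). Of the 678 genes called higher at 4 weeks 430 were also called higher at 6 weeks, which is 63.4% of the first list and 25.8% of the second, and 0 were called lower. Of the 700 called lower 288 were called lower again, or 41.1% and 23.8% of each list, and 1 was called higher. The test of the change between 4 and 6 weeks called 53 genes (0.266%), 50 of them more positive and 3 more negative, at an unadjusted p below 0.05 for 2572. Chil4, a chitinase-like protein, stood at 4.85, 4.31 and 4.78 in cpdm skin and 4.43, 4.37 and 4.4 in wild type skin at 4 weeks. At 6 weeks it stood at 9.46, 9.82 and 11.06 in cpdm skin and 3.87 to 4.36 in 4 wild type arrays, a change of 5.74 ± 0.60 (adjusted p = 1.51e-05). The groups thus overlapped at 4 weeks and lay apart by 6 weeks. Repetin (Rptn), a cornified envelope protein, went from 0.43 to 2.81, Klk8 from 0.40 to 2.12, Casp14 from 0.59 to 2.07, Ggct (gamma-glutamylcyclotransferase) from 0.07 to 1.56, Klk9 from 0.96 to 3.17 and Klk13 from 1.38 to 3.44. Rbp2, which had already changed between 2 and 4 weeks, went on from 1.66 to 3.37 (change 1.71 ± 0.24, adjusted p = 0.000512), the adhesion receptor Adgrg7 from 1.90 to 3.75 and Il1f8 from 1.69 to 3.46. The number of calls for this change depended on single arrays: 20 without cpdm 4 week replicate 2, 34 without cpdm 4 week replicate 3, 28 without wild type 4 week replicate 1, 21 without cpdm 6 week replicate 3, 152 without wild type 6 week replicate 2 and 32 without wild type 6 week replicate 3.

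**Figure D5:**
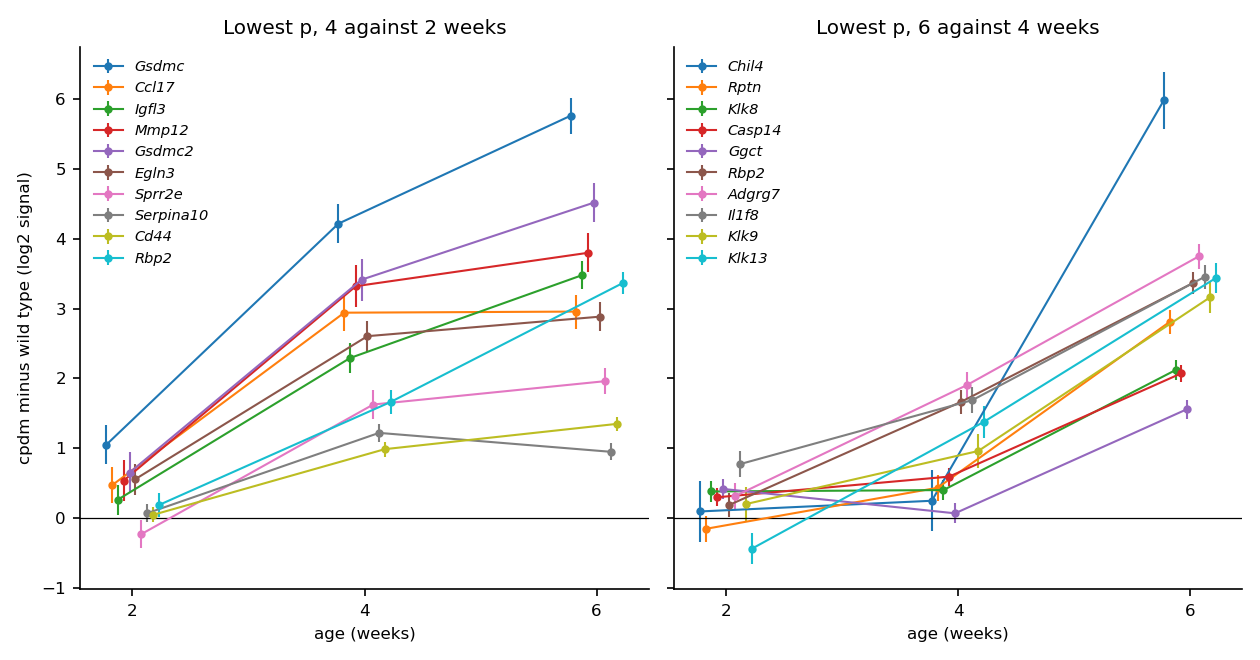
Difference between cpdm and wild type skin (y axis, log2 signal) at 2, 4 and 6 weeks (x axis) for the 10 genes with the lowest p for a change of the difference between 2 and 4 weeks (left) and between 4 and 6 weeks (right), with bars of 1 standard error and points moved sideways to separate them. Gsdmc goes from 1.05 to 4.22 by 4 weeks, and Chil4 from 0.25 to 5.99 only between 4 and 6 weeks.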

How the data were processed

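RNA of whole mouse skin, kept in RNAlater and extracted with TRIzol per the labels' protocols, was hybridised to Affymetrix arrays, 1 sample to an array. The authors deposited log2 signals of 35556 probe sets which RMA in Affymetrix Expression Console 1.2 produced, per the submitters' processing notes. Whether all 31 arrays were normalized together is not stated in any source used here, and the deposited log2 values carry 2 decimals, which bounds the precision along with the 3 arrays in each group. The labels' protocols describe a labelling kit for 3′ ends, whereas the probe sets belong to a whole-transcript design, and which of these applied was not settled.

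Probe sets were named from GEO's platform annotation; 21789 named a single gene, 1621 several and 12146 none, and 21698 of the first matched a RefSeq gene. A model of 10 group means (genotype by age, 31 arrays, 21 residual degrees of freedom) was fitted with limma 3.58.1 in R 4.3.3 with lmFit and eBayes, so all ages share 1 estimate of the spread. The 4 week contrast and its changes from 2 and to 6 weeks were each adjusted over 19938 genes by the Benjamini-Hochberg method. Python 3.11.15 with pandas 2.3.3 and matplotlib 3.10.9 made the tables and figures. The fit was also run on simulated arrays with independent normal noise. Those lack shifts shared by many genes of an array, so that run bears on the code and not on the calls.

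Named were the 15 largest rises and 15 largest falls without overlap, from each of 53 lists the 5 members of lowest p at most, all members of 6 lists, Sharpin with 5 genes on each side, the 10 lowest p-values of each age comparison, and genes whose promoter is shown; gene models and clones, 64 of the calls, were not named. The comparison, its members and the gene lists were chosen with earlier results of these data known. Alternatives tried were the fit of the compared ages alone, averaging the probe sets of a gene, no dim genes, a spread both trended and robust, weights for arrays, a second quantile normalization, centring, a replicate block, a stricter threshold and leaving out each array. Deviations of same-numbered arrays of the 2 genotypes correlated at 0.264, 0.0979 and -0.0916 for numbers 1, 2 and 3. Those of arrays with unlike numbers correlated at -0.306 to 0.289. The values for like numbers lay within that range, so the numbers were not taken as pairs.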

Additional observations from a re-analysis of the deposited data

Results flagged for a closer look

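The genotype difference was not the same at 4 and 2 weeks for 46 genes and not the same at 6 and 4 weeks for 53, by limma's test of the change itself with adjustment over all genes. The changes with the lowest p between 2 and 4 weeks were 3.17 for Gsdmc, 2.47 for Ccl17, 2.03 for Igfl3, 2.79 for Mmp12, 2.77 for Gsdmc2, 2.05 for Egln3, 1.86 for Sprr2e, 1.15 for Serpina10, 0.94 for Cd44 and 1.48 for Rbp2, all in log2 units. All were toward a more positive difference, and in Cd44, Egln3 and Sprr2e a fall of the wild type level was part of it. Those between 4 and 6 weeks were 5.74 for Chil4, 2.38 for Rptn, 1.72 for Klk8, 1.48 for Casp14, 1.49 for Ggct, 1.71 for Rbp2, 1.85 for Adgrg7, 1.77 for Il1f8, 2.21 for Klk9 and 2.06 for Klk13. Both changes use the same 4 week arrays, so the lists are not independent.

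In the 4 wild type arrays of 6 weeks, replicate 2 lay far from the others for Il1f8, at 5.09 against 4.74, 4.67 and 4.74. Chance gives such a gap in about 1 in 20 groups of this size, and groups of 3 arrays were not examined in this way.

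Of 13767 probe sets with no single gene, 54 were called higher and 14 lower at 4 weeks in a fit of their own. They are unnamed here.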

How the results depend on the processing

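Among 167 named genes called at 4 weeks, 163 kept the call with the replicate block and 97 kept it at an adjusted p below 0.01. In the 6 fits that left out 1 array of 4 weeks, 91 kept it throughout and 76 lost it in at least 1. Direction changed in 0 of them under any alternative. Leaving out 1 array cannot reverse a gene whose groups do not overlap, and nearly all called genes were of that kind, so this count is no support. The 1378 calls at 4 weeks became 2924 with array weights (1319 higher, 1605 lower), which gave wild type replicate 1 a weight of 0.524, 408 at an adjusted p below 0.01, and 618 to 1064 with 1 array left out; the 6 arrays alone gave 1382, of which 867 were also called, in the same direction, in the fit of all ages. The replicate block gave 1334, and the repeated normalization and centring gave 1338 and 1379. The 46 changes between 2 and 4 weeks became 523 in the fit of those 2 ages alone, 611 with array weights, 26 at an adjusted p below 0.01 and 31 to 51 with 1 array left out, and 52 with the replicate block. The 53 changes between 4 and 6 weeks became 27 in the fit of those 2 ages alone, 650 with array weights, 20 at an adjusted p below 0.01, 20 to 152 with 1 array left out and 36 with the replicate block. For these counts the cause was not tested. Members called lower rose in number with array weights and in the fit of the 6 arrays alone, respectively, from 6 to 17 and 12 for collagens and elastic fibres, 2 to 6 and 6 for fibroblasts, 2 to 7 and 6 for follicle growth and 2 to 6 and 5 for glycogen. Members called higher rose from 6 to 10 and 12 for antigen presentation.

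In the fit of the 6 arrays alone, calls ended (adjusted p) for Il1b (0.0624), Tnfaip3 (0.106), Traf2 (0.0509), Cxcl1 (0.0915), Cx3cl1 (0.0507), Il1rn (0.059), Csta1 (0.0611), Hbegf (0.0804), Epgn (0.0985), Cyp2g1 (0.0525), Ear6 (0.0903), Prg2 (0.0637), Marco (0.101), Nog (0.0875), Wnt4 (0.0509), Bmp2 (0.0558) and Gata2 (0.121). Repeated quantile normalization ended those of Icos (0.0999), Mcpt8 (0.0527), Adamts8 (0.0556), Bmp2 (0.0916), Bmp4 (0.0677), Ear6 (0.0987), Marco (0.0554) and Prg2 (0.0977), and centring those of Bmp2 (0.0673) and Bmp4 (0.061). A trended and robust spread ended those of Akr1c14 (0.052) and Gata2 (0.0508), and the replicate block those of Flt1 (0.0653), Icos (0.0551), Prg2 (0.0662) and Bmp4 (0.0527). Signals near the bottom of the array compress differences, and without the dimmest 40% of genes 1208 were called.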
